A study of Caenorhabditis elegans with 2 samples.

Results

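Aminoacyl-tRNA synthetases are the enzymes that attach each amino acid to its matching transfer RNA (tRNA). Their genes were examined here for binding of LET-607, a basic leucine zipper transcription factor of the CREB3 type, in the nematode Caenorhabditis elegans. The members were the protein-coding genes whose name is 1 letter followed by ars- and a digit, the letter standing for the amino acid. There were 32 of them among 19973 protein-coding genes. Of these, 22 had a candidate region of the pooled list at a start and 5 were bound: lars-1, cars-1, hars-1, sars-1 and aars-1.

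Cells of eukaryotes translate in the cytosol and in the mitochondria, and each compartment needs charged tRNAs. Many amino acids have separate nuclear genes for the cytosolic and the mitochondrial enzyme, and some have a gene that serves both through alternative starts. In mammals many of the cytosolic synthetase genes are targets of ATF4, another basic leucine zipper factor, when amino acids are short or the endoplasmic reticulum (ER) is stressed. CREB3 factors are known for regulating genes of the secretory pathway.

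The series holds 1 group of 2 biological replicates, mapped by chromatin immunoprecipitation and sequencing (ChIP-seq) with an antibody against GFP. The worms, strain YL651, carried the let-607(tm1423) and unc-119(ed3) mutations and the integrated array vrIs121 with a LET-607 fosmid and unc-119 (+). The fosmid copy bears a GFP-FLAG tag at its C terminus. Larvae starved at the first stage after bleaching were grown to young adults of 49.5 hours, and males and females were pooled. Whole animals from 1 integrated line were used, so binding in different tissues cannot be told apart, and no untagged or differently treated group was analysed here.

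The pooled list held 30000 candidate regions, replicate 1 held 30000 and replicate 2 held 26493, and read depth is unknown because the lists give no counts. The thresholded list, made with the irreproducible discovery rate from both replicates, was the 1488 pooled regions of highest signal. The signal is the value that the authors' peak caller gave to a region, computed in a way that no label or file header states. It ran from 110.8 to 6858.6 in the thresholded list. A gene was bound when a thresholded summit fell within a window around one of its coding transcript starts, reaching 1000 bp upstream and 200 bp downstream. Ranks count from the strongest pooled region. All positions are 1-based on ce11, the WBcel235 assembly.

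The sequences around 3 of the bound summits show how they differ in the short motifs that were searched. ACGT and TGACG are letters that basic leucine zipper factors are known to prefer, and TGATAA is not among these. Each is the summit base with 50 bp on either side, from the RefSeq copy of WBcel235, written in the direction of the gene. Capitals mark ACGT or a longer searched motif. The lars-1 window is chrIII:4187028-4187128 on the minus strand, the hars-1 window is chrIV:10858779-10858879 on the plus strand, and the sars-1 window is chrIV:10003780-10003880 on the plus strand and reaches into sars-1 coding sequence.
lars-1: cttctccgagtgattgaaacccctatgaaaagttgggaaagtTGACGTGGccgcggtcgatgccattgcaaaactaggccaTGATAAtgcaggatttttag
hars-1: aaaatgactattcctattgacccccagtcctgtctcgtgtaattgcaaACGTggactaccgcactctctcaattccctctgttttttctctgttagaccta
sars-1: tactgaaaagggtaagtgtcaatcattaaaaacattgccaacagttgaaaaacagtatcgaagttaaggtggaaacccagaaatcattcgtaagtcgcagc

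The lars-1 window held TGACGTGG, 4 bp from the summit. Only 28 of the 1488 thresholded windows (1.88%) held these letters on either strand. The TGACG and ACGT within it are parts of the same element. TGATAA also stood in the lars-1 window, 34 bp from the summit, as in 15.5% of thresholded windows. The hars-1 window held ACGT 1 bp from the summit, a core found in 34.1% of thresholded windows. The sars-1 window held none of the searched motifs, and neither did that of cars-1, whose signal of 311.3 nearly equalled the 311.8 of lars-1. Several motifs were searched in each of the 5 bound windows, so 1 rare match says little.

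Over the 5 bound genes, ACGT stood in the windows of lars-1, hars-1 and aars-1, and TGACG in those of lars-1 and aars-1, against 21.8% of thresholded windows for TGACG. At aars-1 both overlapped on chromosome II at 11464450 to 11464455, 34 to 36 bp from the summit. TGACGTCA, CACGTG, AGACGCAG and TGATGNAA, the ATF4 type of element known from mammals, were in none of the 5 windows. By the rough rule that a count of 0 allows up to 3, 0 in 5 allows a share of up to 60.0%, so this says little. This rule is not the Wilson interval used for the shares. Thresholded windows held them at 0.739%, 7.80%, 5.58% and 2.82%. With 100 bp on either side of the summit, hars-1 also had CACGTG and TGATAA. Among the 17 unbound genes with a candidate region, ACGT was in the windows of kars-1, nars-2, pars-2 and qars-1, and TGACG in none. TGATAA was in those of nars-2 and rars-1. With 100 bp on either side, tars-1 also had TGACG and vars-1 had ACGT. The share over all candidate windows below the threshold is not given here, so these counts stand without a background.

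The bound share of the synthetase genes was higher than that of all genes, but whether its interval held the share of all genes depended on the setting. Of the 22 genes with a pooled region, 5 were bound (22.7%, 95% Wilson interval 10.1 to 43.4). Of all 7766 protein-coding genes with a pooled region in the window, 958 were bound, or 12.3%. The interval contains this background. Over all annotated genes the shares were 15.6% of 32 members (6.86 to 31.8) and 4.80% of 19973, and here the interval lay above the share of all genes. It lay above in 5 of 8 alternative settings in all and contained it in the other 3. The intervals cover counting error only, and the difference was not tested. A candidate region of any strength was present at 68.8% of the members and at 38.9% of all genes.

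Of the 5 bound genes, 4 ranked between 203 and 432 of the 1488 thresholded regions, and aars-1 ranked 1336. Their median signal was 230.2 and their median rank 349, against 173.9 and 602.5 for all 958 bound genes. They ranged from 116 to 312, far below the strongest thresholded regions. The 22 members with a pooled region had a median signal of 57.1, and the 7766 background genes 52.0.

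**Figure D1:**
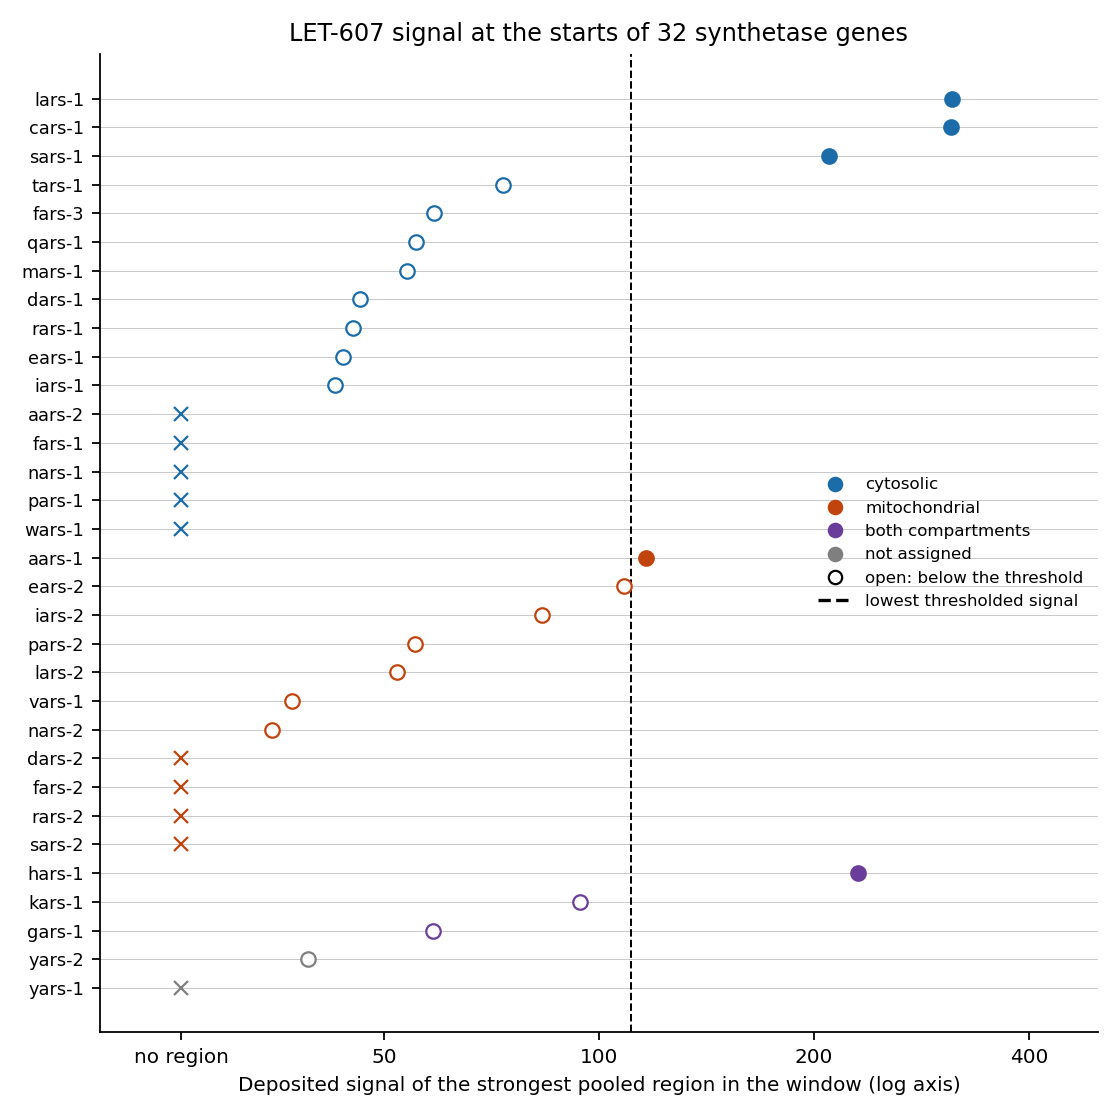
Deposited signal of the strongest pooled region in the window of each of the 32 genes (log axis), grouped by compartment and sorted by signal; filled points are bound, open points are below the threshold, crosses have no pooled region and the dashed line is the lowest thresholded signal of 110.8. lars-1, cars-1, hars-1 and sars-1 stand well to the right of the line, and aars-1 and ears-2 lie next to it on either side.

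Of the 16 genes counted as cytosolic, 11 had a pooled region and 3 were bound (27.3%, Wilson interval 9.75 to 56.6). This interval contains the 12.3% of all genes with a pooled region. The leucyl enzyme gene lars-1 had the highest signal of all members, 312 at rank 203. It read 119.7 in replicate 1 and 185 in replicate 2, where it ranked 284 and 194. The region, chrIII:4186990-4187164, was intergenic, with its summit 277 bp upstream of the only annotated coding start. No other coding gene had that summit in its window, and the upstream neighbour R74.2 is divergent and 1358 bp away. The region of xbp-1, the unfolded protein response regulator, has its summit 6690 bp further along the chromosome.

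The cysteinyl enzyme gene cars-1 followed directly, with a signal of 311 at rank 204. Its replicate signals were 161 and 150.0, at ranks 158 and 254. Replicate 1 was the higher here, whereas at lars-1 replicate 2 was the higher. The region lay on chromosome I from 2628257 to 2628418, and no other coding gene shared its summit. The summit lay in a coding exon of cars-1, 231 bp upstream of an internal start. Against the outer start it lay 234 bp downstream, which the window does not reach, so the call rests on the internal start.

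The seryl enzyme gene sars-1 had a signal of 210.1 at rank 432, with 113 in replicate 1 and 108 in replicate 2. These are nearly equal, and the ranks were 312 and 505. The region, chrIV:10003628-10004031, had its summit in an intron of sars-1, 104 bp downstream of the start. The divergent gene C47E12.2, whose 5′ end lies 223 bp from that of sars-1, had the same summit in its window, 328 bp upstream of its start. With a window of 500 bp upstream to 100 bp downstream sars-1 was no longer bound, because its summit lay 4 bp too far downstream.

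The other 8 cytosolic genes with a pooled region stayed below the threshold. The highest was the threonyl enzyme gene tars-1, at 73.4, with 40.3 in replicate 1 and 39.9 in replicate 2. That summit lay 648 bp upstream of the nearest tars-1 start but 113 bp downstream of a start of kel-1. RefSeq names only some tars-1 products as cytoplasmic, so its place in this class is uncertain. The beta subunit gene of the phenylalanyl enzyme, fars-3, had 58.8 pooled and 50.7 in replicate 2, with no matching region in replicate 1. The glutaminyl gene qars-1 (55.5), the methionyl gene mars-1 (53.9), the aspartyl gene dars-1 (46.4), the arginyl gene rars-1 (45.2), the glutamyl gene ears-1 (43.8) and the isoleucyl gene iars-1 (42.8) followed, around the median of 52.0 of the background genes. No pooled region was found at aars-2, fars-1, nars-1, pars-1 and wars-1, for alanine, phenylalanine, asparagine, proline and tryptophan.

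Of the 11 mitochondrial genes, 7 had a pooled region and 1 was bound (14.3%, Wilson interval 2.57 to 51.3). This share is near the 12.3% of all genes with a pooled region. The bound gene was aars-1, for alanine, with a signal of 116 at rank 1336, close to the end of the thresholded list. Its replicate signals were 62.0 and 57.0, at ranks 1200 and 1827. Both are well below those of the other bound members. The region, chrII:11464215-11464618, had its summit in the 5′ UTR of aars-1, 80 bp downstream of the start. The divergent gene rga-1, 396 bp away, shared the summit, which lay 477 bp upstream of its start.

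The glutamyl gene ears-2 missed the threshold by little, with a signal of 108.5 at rank 1563. In the replicates it had 59.7 and 54.2, ranks 1324 and 2036. These are within 3 units of the values of aars-1 in both replicates, so the 2 genes were separated by the threshold and hardly by signal. Its summit, at chromosome IV 390470, lay 2 bp upstream of its start in the 91 bp between it and the divergent gene uncp-18. The isoleucyl gene iars-2 had 83.1 at rank 2840, with 46.9 in replicate 1 and 37.8 in replicate 2. That summit lay 430 bp upstream of iars-2 but 39 bp upstream of the start of C25A1.20.

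The other mitochondrial genes were lower. The signal was 55.4 at the prolyl gene pars-2, 52.2 at the leucyl gene lars-2, 37.2 at the valyl gene vars-1 and 34.8 at the asparaginyl gene nars-2, whose region had no match in either replicate. At pars-2 the replicates differed, with 41.6 in replicate 1 and 22.0 in replicate 2. No pooled region was found at dars-2, fars-2, rars-2 and sars-2.

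The 3 genes counted as serving both compartments all had a pooled region, and the histidyl gene hars-1 was bound. That is 33.3% (Wilson interval 6.15 to 79.2), against 12.3% of all genes with a pooled region. The signal of hars-1 was 230.2 at rank 349, with 111 in replicate 1 and 112 in replicate 2, at ranks 326 and 466. The replicates hardly differed. The region, chrIV:10858627-10859030, was intergenic, 128 bp upstream of the outer start and 488 bp upstream of an inner one. The divergent gene T11G6.2, 460 bp away, shared the summit at 333 bp upstream of its start.

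The lysyl gene kars-1 had 2 candidate regions below the threshold. The stronger had a signal of 94.1 at rank 2136 and lay 910 bp upstream of the start and 489 bp upstream of the divergent gene kat-1. It was uneven between replicates, with 29.9 in replicate 1 at rank 9690 and 63.3 in replicate 2 at rank 1450. The second, 286 bp upstream of kars-1, had 87.5 at rank 2528, with 42.7 and 51.4. The glycyl gene gars-1 had 58.6, with 24.1 in replicate 1 and 37.8 in replicate 2. The tyrosyl genes yars-1 and yars-2 were not assigned to a compartment; yars-2 had 39.2 pooled and yars-1 no region.

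The cytosolic and mitochondrial shares could not be told apart, since the Wilson interval of each contains the other's share. Set side by side for 1 amino acid, 0 of the 11 gene pairs of 10 amino acids had both forms bound. The gene fars-2 is paired with both fars-1 and fars-3. Since 4.80% of all protein-coding genes were bound, pairs with both bound would be rare for any genes, and this count says little. The cytosolic form alone was bound for leucine and serine, and the mitochondrial form alone for alanine. The other 8 pairs had neither. For leucine the pooled signals were 312 and 52.2, and for serine 210.1 against no pooled region at sars-2. For glutamate and isoleucine the mitochondrial form had the higher signal, 108.5 against 43.8 and 83.1 against 42.8. The summits behind these values all lay in another coding gene's window too, so the signals cannot be assigned to the synthetase genes alone.

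**Figure D2:**
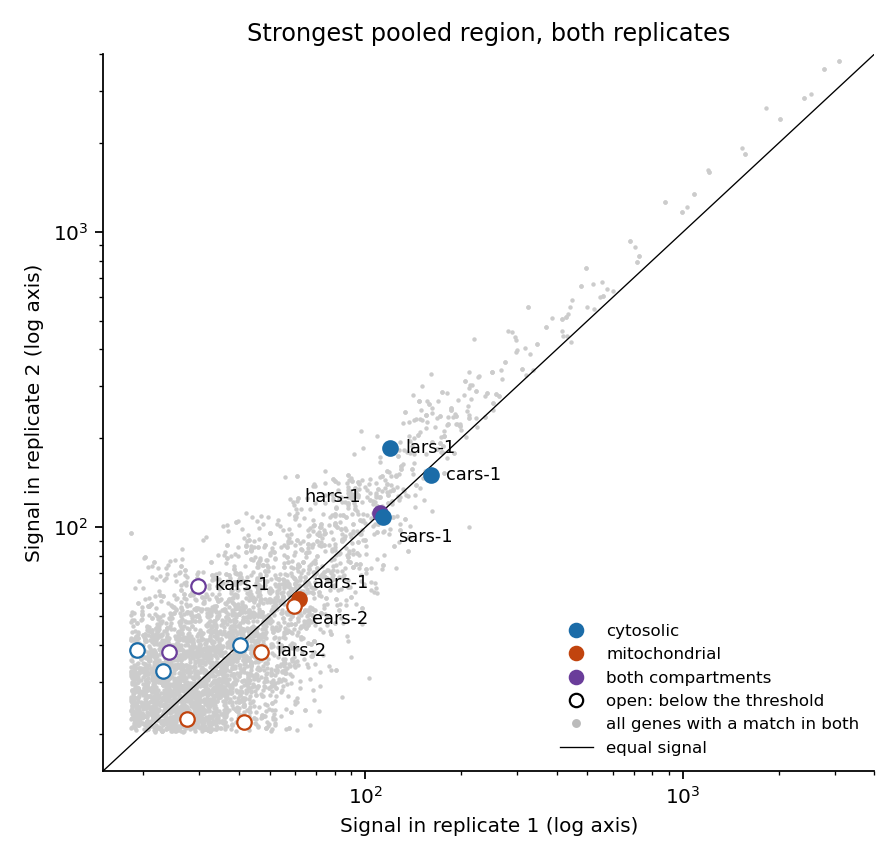
Signal in replicate 1 (x) and replicate 2 (y), both on log axes, of the strongest pooled region at each member with a match in both replicates, over all genes with such a match in grey; the line marks equal signal. lars-1 and kars-1 lie above the line, and hars-1 and sars-1 lie on it, with 111 to 113 in replicate 1 and 108 to 112 in replicate 2.

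Each replicate was also read on its own, by its 1488 strongest regions. Replicate 1 alone gave 6 bound members of 21 with a region, adding ears-2 to the same 5, against a background of 12.4%, while the interval of the 28.6% of members began at 13.8%. Replicate 2 alone gave 5 of 23, with kars-1 in and aars-1 out, against a background of 13.3%. Here the interval of the members, 9.66 to 41.9, contained the background. The genes lars-1, cars-1, hars-1 and sars-1 were among the strongest regions of both. They are 4 of the 18 members with a region in both replicates, beside 693 of 4883 genes. At the 5 bound members the ratio of replicate 1 to replicate 2 ran from 0.646 at lars-1 to 1.09 at aars-1, with a median of 1.05. Over 954 bound genes with a match in both the median was 0.839. Of the 17 unbound members with a pooled region, 9 had a match in both replicates, 6 in replicate 2 alone, 1 in replicate 1 alone and 1 in neither. Of the 10 members without a pooled region, 4 had a candidate region in a replicate list. Absence from the pooled list is therefore not absence of any signal.

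The 5 bound summits lay close to their starts. All 5 were within 300 bp of a start of the gene, as were 6 of the 17 unbound members' summits and 56.9% of the 958 bound genes. The distance of 300 bp was chosen after the values were seen. The remaining unbound members had summits spread from 430 to 915 bp upstream. With each summit given only to its nearest start, all 5 were still bound. Of the 5 summits, 3 were also in the window of a divergent neighbour, and binding there cannot be assigned to either gene. Of the 17 unbound members' summits, 8 were also in the window of another coding gene.

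**Figure D3:**
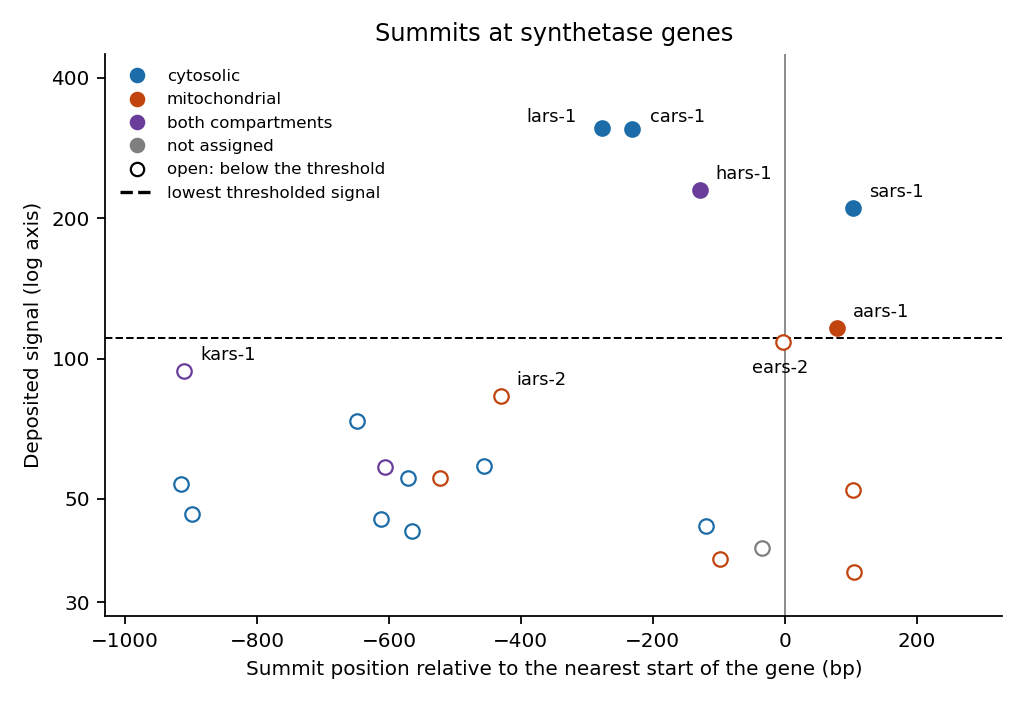
Position of the strongest pooled summit relative to the nearest start of the gene (x, in bp, negative upstream) against its signal (y, log axis) for the 22 members with a pooled region; colours and symbols as in the plot of signal by gene. The filled points lie between 277 bp upstream and 104 bp downstream of a start, and the open points spread over the whole window.

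Gene order upstream was set beside the calls, since worm genes on 1 strand are often transcribed together as operons. Operon annotation was not used here. The grouping was chosen after the calls were seen. Of 13 members with a coding gene on the same strand within 1000 bp upstream, 9 had a pooled region and 0 were bound. By the rough rule that a count of 0 allows up to 3, the share could be up to 33.3%. Over all genes of that kind, 9.11% of 2293 were bound. Of 11 members with a divergent gene within 1000 bp, 9 had a pooled region and 3 were bound (hars-1, sars-1 and aars-1), against 18.8% of 1625 genes. Of the 8 with neither, 4 had a pooled region and 2 were bound (lars-1 and cars-1), against 11.5% of 3848 genes.

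Strong regions further upstream were seen at a few unbound members, named here because of their values. The gene rars-1 follows rpb-8 on the same strand at 65 bp, in a run of close genes of which 1 was itself bound. A region at chrIII:4918368-4918658, in a coding exon of ula-1, had its summit 1331 bp upstream of rars-1 with a signal of 645.6 at rank 66. It read 219.5 in replicate 1 and 432 in replicate 2, which is higher than at any bound member. At fars-2 a region at chrV:19908918-19909321 had a signal of 142 at rank 903. Its summit lay 1686 bp upstream, in the 3′ UTR of chk-2. Both regions, though with summits inside other coding genes, entered with a window of 2000 bp upstream to 500 bp downstream. That window gave 7 bound members of 26 (26.9%, Wilson interval 13.7 to 46.1), against 12.1% of all genes with a pooled region in it. Of the 13 members with a same-strand gene within 1000 bp upstream, the first gene of that run was bound at 1. This was prp-19, upstream of gars-1, at 122.7 and rank 1208. Over all protein-coding genes 4.80% were bound, and a link of prp-19 binding to gars-1 was not tested.

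A thresholded region also lay inside fars-1, on chromosome I from 6212661 to 6213064, with a signal of 154.7 at rank 782. Its summit was in an intron, 1353 bp downstream of the nearest fars-1 start and 978 bp from the start of mrpl-23, a mitochondrial ribosomal protein gene. No tRNA gene lay near the synthetase regions. The closest was 48599 bp from the summit inside fars-1, and the closest to the strongest summit in a member's window was 54183 bp away, although 145 of the 1488 thresholded summits were within 1000 bp of a tRNA gene.

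**Figure D4:**
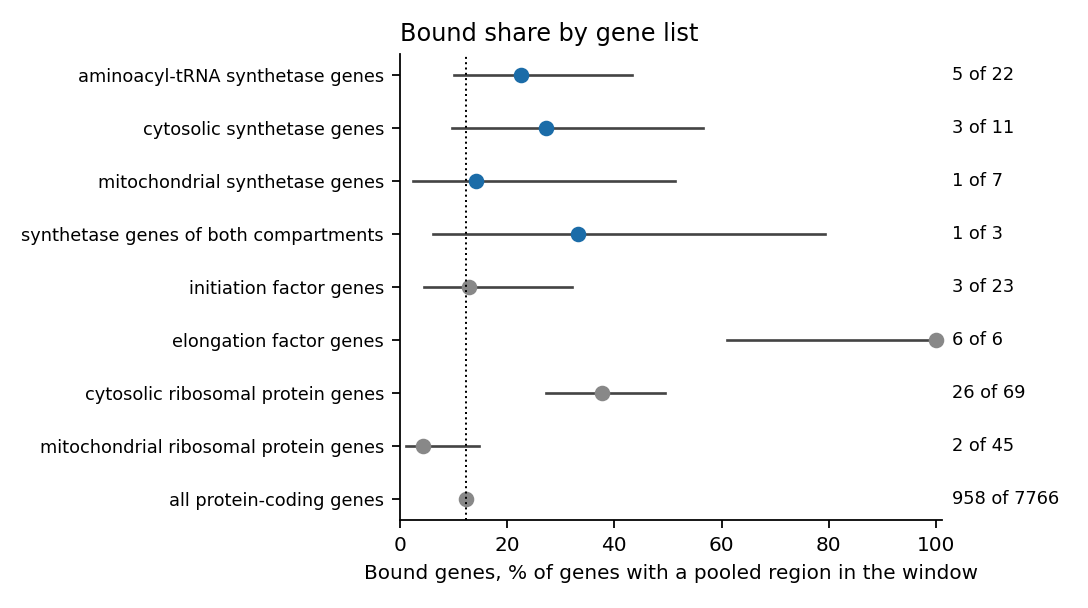
Share of bound genes among genes with a pooled region in the window (points) with 95% Wilson intervals (lines) for the synthetase genes, their classes and other translation genes; counts stand at the right and the dotted line marks the share of all genes, 12.3%. The synthetase intervals cross the dotted line, and the elongation factors lie at 6 of 6.

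Other genes of translation, taken by name, were set beside the synthetases without a test. Elongation factors were bound at 6 of 6 genes and cytosolic ribosomal protein genes at 26 of 69 (37.7%). Initiation factors were bound at 3 of 23 (13.0%) and mitochondrial ribosomal protein genes at 2 of 45 (4.44%). Over all genes with a pooled region the share was 12.3%, near that of the initiation factors. As with the synthetases, a summit in the windows of several genes counted for each of them. The median signal of the bound genes was 227 for elongation factors, 259 for cytosolic ribosomal proteins and 230.2 for synthetases. Differences between these lists were not tested.

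Genes that act around the synthetases were read from a list of 16 names, of which 13 matched an annotated gene and 7 had a pooled region. Of these 7, 3 were bound (42.9%, Wilson interval 15.8 to 75.0), against 12.3% of all genes with a pooled region. The names were picked by hand with earlier results of these data known, so the share cannot stand for such genes in general. The difference was not tested. Of the 3, eef-1A.1 and eef-1A.2 were already counted with the elongation factors above, which were bound at 6 of 6 genes. Bound were eef-1A.2 at 269 and eef-1A.1 at 186, which encode the factor that carries charged tRNA to the ribosome, and pek-1, the ER stress kinase of the PERK type, at 212. The factor gene atf-4 (71.7) and gcn-1 (71.3), which acts with the kinase GCN2 in sensing uncharged tRNA, stayed below the threshold. So did the tRNA exporter gene xpo-3 (51.5) and hpo-31 (49.7). The gcn-2 gene had no pooled region, nor did asns-2, secs-1, seld-1, abce-1 and glp-4. RefSeq also names glp-4, Y105E8A.20, prx-10 and K03B4.1 as synthetase genes, which the naming rule leaves out. None of these 4 was bound, and only K03B4.1 had a pooled region, at 59.3.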

How the data were processed

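The authors deposited region lists on ce11 for each replicate, for both pooled and after thresholding by the irreproducible discovery rate; per the text files deposited with them, calling used alignments of the replicates and of a control. The signal per region and the −log10 q-value are the authors' deposited values; the −log10 q-value was not used for any result. No label or header used here names the aligner or the caller, and depth is unknown.

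Starts were those of coding transcripts in Ensembl release 115 (WBcel235), and sequence and product names came from RefSeq. Compartments followed RefSeq product names where these state one, otherwise a list from general knowledge. A replicate value is that of the strongest replicate region with its summit inside the pooled region. Motifs were searched on both strands. With 1 group, no test was run; lists are given by counts, medians and 95% Wilson intervals (scipy 1.17.1, Python 3.11.15; figures with matplotlib 3.10.9). The calling rule was tested on simulated data. Every bound member is named, as are unbound members ranked within 3000 and every other member by its signal; rars-1, fars-1, fars-2 and prp-19 regions outside the windows were named after their values were seen. The members and lists were chosen with earlier results of these data known. Alternatives changed the threshold, window, start, background, region overlap, motif window and replicate.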

Additional observations from a re-analysis of the deposited data

How the results depend on the processing

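The bound share of 22.7% stayed within its interval under all 8 alternatives, from 15.6% with all protein-coding genes as background to 28.6% with the 500 to 100 bp window. Of the 5 bound members, 3 (lars-1, cars-1 and hars-1) were bound under every one; sars-1 was lost with the 500 to 100 bp window, and aars-1 with the strongest 50% of thresholded regions and without replicate 1. The share over all genes moved too, from 4.80% to 13.8%, and the reading against it changed. With the main setting the interval of the members contained it (10.1 to 43.4 against 12.3%), but in 5 alternatives the interval began above it: at 7.31 against 7.19% with the strongest 50% of thresholded regions, 13.7 against 12.1% with the 2000 to 500 bp window, 10.1 against 9.82% with the nearest start alone, 13.8 against 12.4% without replicate 2 and 6.86 against 4.80% with all protein-coding genes. The cytosolic share stayed between 18.8% and 33.3%. The mitochondrial share rests on aars-1 alone and was 0.0% with the strongest 50% of thresholded regions, and from 0.0% to 25.0% when either replicate was left out, against 14.3%. The median signal of bound members, 230.2, became 270.8 with the strongest 50% of thresholded regions and 270.8 with the 500 to 100 bp window, because 1 weaker member dropped out, and was 112.1 to 112.2 on the scale of a replicate alone. No paired analysis was possible because only 1 group of worms was profiled. With 5 bound members and unknown read depth, shares of classes cannot be told apart.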
